A study of Gallus gallus with 4 samples.

Results

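The F1 follicle, the largest follicle of the hen's preovulatory hierarchy and the next to ovulate, was compared between granulosa cells close to the germinal disc (proximal) and cells away from it (distal). The comparison rested on the F1 proximal and the F1 distal library, 2 of the 4 libraries of the series, joined gene by gene. It covered 11203 of 19309 genes, those whose FPKM (fragments scaled by gene length and sequencing depth) averaged 1 or more across the 4 libraries. Every library came from ovarian granulosa cells, labelled natural, of hens (Gallus gallus) aged 10 to 15 months, with poly-A RNA sequenced. Besides the F1 pair, an F5 proximal and an F5 distal library, from a follicle further from ovulation, are set beside the main results. Each group had 1 library, and neither the number of hens nor that of follicles behind a library is labelled, nor whether the 2 positions came from the same follicle. Differences therefore have no replicate check, and only their sizes are described.

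Granulosa cells form the layer around the yolk-filled oocyte of the bird. The germinal disc is the patch of cytoplasm on the oocyte surface that holds its nucleus, and oocyte factors act on the granulosa cells that lie over it. Toward ovulation the granulosa layer takes up luteinizing hormone signals through LHCGR and makes progesterone, in the steps carried by STAR, CYP11A1 and a 3-beta-hydroxysteroid dehydrogenase, while the layer over the germinal disc is known for keeping cell division longer and making less steroid.

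The F1 proximal library was the deeper, with 18020270 reads behind its values against 13948790 behind the F1 distal values. Genes above 0 numbered 15774 and 14315. ZP3, the egg coat protein that bird granulosa cells make, took 11.4% of the F1 proximal reads and 15.4% of the F1 distal reads. All 10 granulosa markers passed the filter, but AMH, the anti-Mullerian hormone, was low in F1 distal cells, at 0.508 against 6.96 FPKM in F1 proximal cells. FOXL2, an ovarian transcription factor, stood at 1594 FPKM in F1 proximal and 1391 FPKM in F1 distal cells, and INHA, the inhibin alpha subunit, at 2915 and 3269.5 FPKM. Markers of other cell types were low or mixed. No leukocyte marker of 10 found and no red blood cell marker of 7 found passed the filter, and in the F1 pair the highest of them was HBAA, at 0.40 FPKM in proximal cells and listed at 0 in distal cells. Of 11 theca and stroma markers found 3 passed the filter, and these 3 summed to 12.7 FPKM in F1 proximal and 7.54 FPKM in F1 distal cells, most of it the collagen COL1A2 at 11.8 and 6.55 FPKM. DCN and LUM were at or near 0, and CYP17A1, a theca enzyme, stood at 0.135 FPKM in F1 proximal and 0.305 FPKM in F1 distal cells. The part of theca cells in the differences below was not tested. Of the endothelial markers KDR, CDH5, VWF and TEK, none exceeded 0.037 FPKM (KDR) in either F1 library, but EMCN, a sialomucin of endothelium and other cells, stood at 3.67 against 0.116 FPKM, TIE1, a receptor kinase, at 4.38 against 3.04 and the adhesion molecule PECAM1 at 3.88 against 3.38 FPKM. Of 9 endothelial markers found by name 4 passed the filter, and these 4 summed to 56.4 FPKM in F1 proximal and 52.4 FPKM in F1 distal cells, most of it EGFL7. In bulk samples fewer cells of a type and less RNA per cell cannot be told apart, and this holds for every difference below. FDPS and NOP56, which every cell uses, were also listed at 0 in both F1 libraries, so a gene listed at 0 is not called absent.

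On the proximal side the differences were more frequent and larger. Calls of 2-fold here and below are differences of at least 1 in log2(FPKM + 1). In low genes such a difference takes more than a 2-fold FPKM ratio. By that rule 580 genes were higher in F1 proximal cells, 5.18% of those compared, and 34 were lower, 0.303%. At 4-fold the counts were 125 (1.12%) and 0. Member counts of the gene lists are read against the 2-fold shares of 5.18% and 0.303%. List members below 1 FPKM in both distal libraries reached the filter only through the proximal ones, which favours the counts of higher members. The median difference over all genes was 0.20 on the log2 scale, with 77.5% of genes above 0, so gene groups are read against 0.20 and not against 0. Under median-ratio scaling, which moves that median to -0.023, 469 genes were higher and 88 lower, and the higher genes made up 84.2% of the calls in place of 94.5%. The share of genes higher by 2-fold declined with level, from 7.84% of genes at a mean of 1 to 5 FPKM to 2.01% of those over 100 FPKM. Of the 580 higher genes, 543 had a counting interval of the fold that left out 1, and 531 rested on at least 20 reads in the pair. Of the 34 lower genes the corresponding numbers were 21 and 20, and 15 of the 34 were models under 150 bases long. Because the same reads chose these genes, the intervals describe counting precision only and are no check on the calls. The corresponding share over all genes is not given here.

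**Figure D1:**
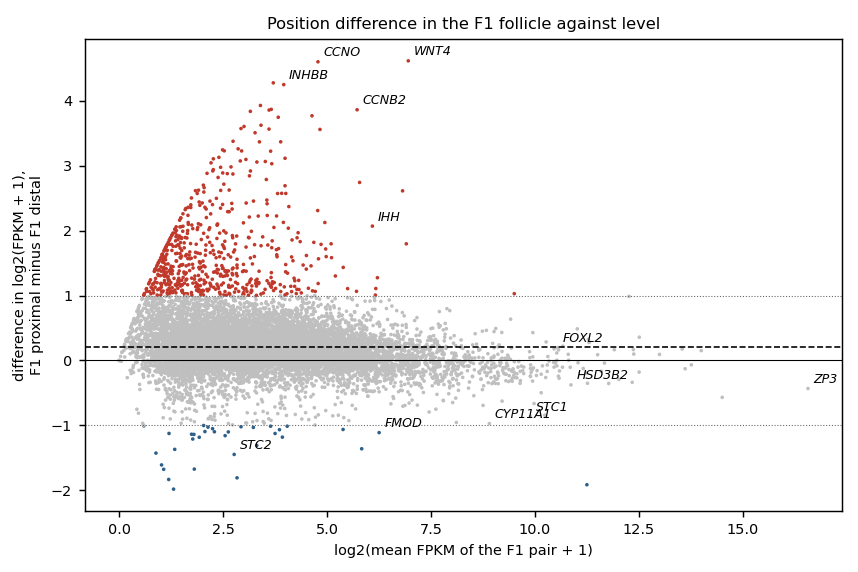
Difference in log2(FPKM + 1) between F1 proximal and F1 distal cells (vertical axis) against the mean FPKM of the pair (horizontal axis, log2) for the 11203 genes compared. Each point is a gene, red at least 2-fold higher (580 genes), blue at least 2-fold lower (34 genes), the dashed line is the median of 0.20 and the dotted lines mark 2-fold. Red points reach far above the dotted line, and none of the blue points reaches 4-fold.

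A first set of genes, most of them secreted signals, was lowest in F1 distal cells and was carried at both positions in F5. WNT4, a WNT ligand of ovarian development (ENSGALG00000004790, chromosome 21, positions 6300381 to 6312118 as the authors' files give them, with no build named), stood at 237 FPKM in F1 proximal, 8.72 in F1 distal, 1600.3 in F5 proximal and 1624 FPKM in F5 distal cells. The F5 libraries were alike and the highest, F1 proximal was lower than both, and F1 distal lower again, 27.2-fold (95% exact binomial interval 23.4 to 31.7, counting error only) below F1 proximal. INHBB, a beta subunit that activins and inhibins use, had the same order, at 28.5 FPKM in F1 proximal, 0.554 in F1 distal, 378 in F5 proximal and 449 in F5 distal cells. It was 51.5-fold (23.4 to 141) higher in F1 proximal than in F1 distal cells. IHH, the hedgehog ligand that granulosa cells send to the theca, stood at 109 FPKM in F1 proximal and 25.2 FPKM in F1 distal cells, 4.32-fold (3.84 to 4.88) higher, against 617 FPKM in F5 proximal and 619 in F5 distal cells. IGF2, an insulin-like growth factor, was 7.31-fold (5.93 to 9.09) higher in F1 proximal cells, at 26.5 against 3.63 FPKM, and the F5 libraries held 144 and 126 FPKM. FST, the activin-binding follistatin, was at 6.59 and 0.588 FPKM in the F1 pair and at 23.9 and 21.6 FPKM in the F5 pair. TMEM72, a membrane protein, showed the same order at 22.6, 0.618, 130.5 and 140.0 FPKM in F1 proximal, F1 distal, F5 proximal and F5 distal cells. For these 6 genes the position difference was within 2-fold in F5. IHH was the only member past 2-fold of 8 hedgehog genes, and the receptor PTCH1, which hedgehog signals are known to induce, stood at 1.31 against 1.26 FPKM in the F1 pair.

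Fatty acid binding proteins split between these patterns. FABP4 stood at 3.05 FPKM in F1 proximal cells and was listed at 0 in F1 distal cells, against 49.5 FPKM in F5 proximal and 90.4 in F5 distal cells, and FABP5 at 6.56 and 1.87 FPKM in F1 against 67.5 and 106 in F5. Both were highest in F5 distal cells, so the order of the positions differed between the follicles in these libraries, a difference that was not tested. FABP3 and FABP7 were instead proximal in both follicles. FABP3 stood at 7.49 against 0.107 FPKM in F1 and 5.22 against 0.778 FPKM in F5, and FABP7 at 6.67 against 0.401 and 8.65 against 2.26 FPKM. LIPG, the endothelial lipase, was 4.19-fold (3.45 to 5.13) higher in F1 proximal cells. These 5 were the members of the list of 24 lipid transfer and fatty acid carrier genes at least 2-fold higher, and the median of the list was -0.07, below that of all genes. At its other end stood PLTP, a phospholipid transfer protein, at 779.8 against 1235 FPKM, and FADS2, a fatty acid desaturase, at 16.5 against 33.8 FPKM.

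Among the other TGF-beta family ligands, AMH, the anti-Mullerian hormone of granulosa cells, was at 6.96 against 0.508 FPKM in F1 and at 21.2 against 1.55 FPKM in F5, proximal in both follicles, and 13.7-fold (8.74 to 22.7) higher in F1. INHBA, the beta-A subunit, had 211 and 238 FPKM in the F1 pair and 17.5 and 19.8 FPKM in the F5 pair, so both beta subunits differed between follicles and only INHBB passed 2-fold between positions in F1. Of 6 ligands in this list that passed the filter, INHBB and AMH were at least 2-fold higher in F1 proximal cells and 0 were lower. BMP15, a family ligand counted with the oocyte genes below, was also past 2-fold, at 1.93 against 0.0778 FPKM. It was below 1 FPKM in both distal libraries. Of 11 receptors and SMAD proteins, 2 were higher. These were ENG, the co-receptor endoglin, with 7.4 against 0.111 FPKM in F1 and 11.5 against 0.447 in F5, and SMAD9, a mediator of bone morphogenetic protein (BMP) signals, with 4.72 against 1.11 FPKM in F1. ENG is also known from endothelium, and its order over the 4 libraries was that of EMCN above. EMCN had 10.6 FPKM in F5 proximal and 0.986 FPKM in F5 distal cells. Both ENG and EMCN were below 1 FPKM in both distal libraries. They passed the filter only through the proximal ones, which favours a shared proximal order. TIE1, PECAM1 and EGFL7 had another order, with both F5 libraries above both F1 libraries. The part of other cell types in the ENG difference was not tested. The receptor subunits ACVR2A and BMPR1B were within 2-fold, at 22.7 against 16.4 and 75.7 against 70.3 FPKM. Of 19 inhibitors and feedback targets 3 were higher, namely FST, the BMP antagonist NBL1 at 45.3 against 2.4 FPKM, which is 18.9-fold (14.6 to 24.7) higher, and SMAD6, an inhibitory SMAD, at 4.88 against 1.75 FPKM. SMAD6 lost its 2-fold call under median-ratio scaling. Other secreted inhibitors were within 2-fold, with NOG at 78.7 against 47.9 FPKM and GREM1 at 20.9 against 24.5 FPKM.

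In the WNT pathway WNT4 stood alone among 3 ligands that passed the filter, the others being WNT16 at 26.2 against 20.5 FPKM and RSPO3, a WNT enhancer, at 1.04 against 0.896 FPKM. Of 17 receptors and inhibitors, 3 were at least 2-fold higher in F1 proximal cells. FZD8, a WNT receptor, was at 46.4 against 14.6 FPKM in F1 and at 3.93 against 1.84 FPKM in F5, so its levels were higher in the F1 follicle at both positions. KREMEN1, a receptor for the Dickkopf inhibitors, stood at 5.94 against 1.2 FPKM, and SFRP1, a secreted WNT antagonist, at 9.11 against 2.99 FPKM. NOTUM, a secreted feedback inhibitor of WNT signals, was the only member of 9 intracellular pathway and target genes past 2-fold, at 1.39 against 0.129 FPKM in F1 and 6.89 and 8.89 FPKM in F5. The general target AXIN2 was at 9.03 against 7.07 FPKM, and beta-catenin (CTNNB1) at 53.2 against 41.6 FPKM, both within 2-fold.

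**Figure D2:**
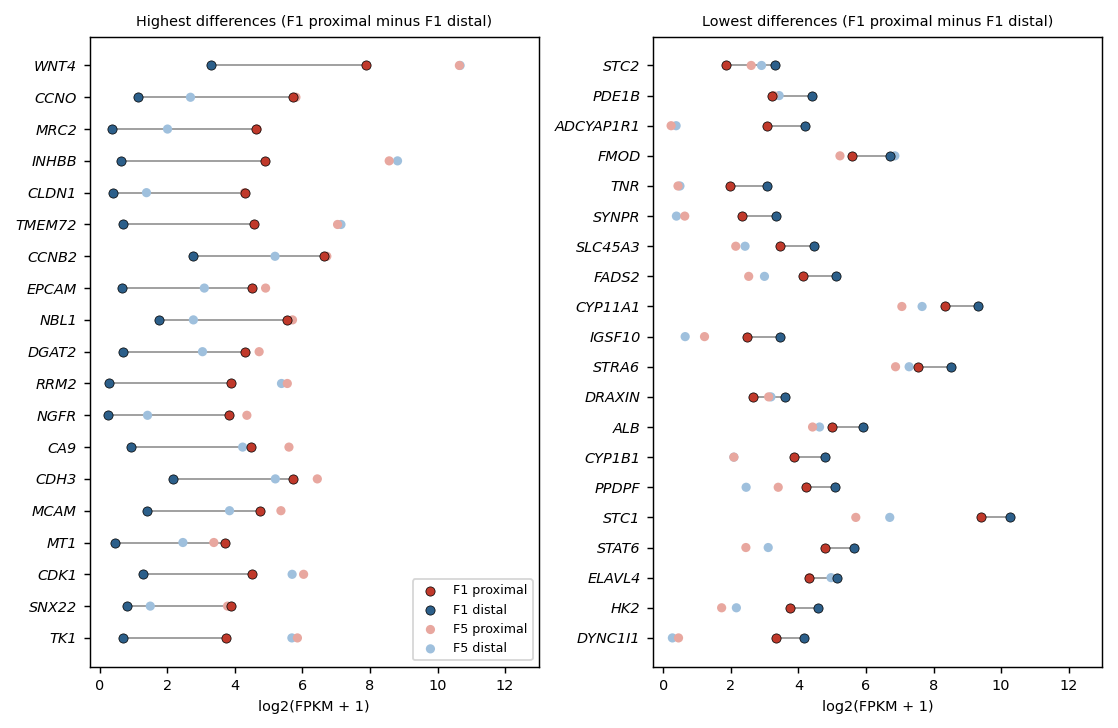
Levels as log2(FPKM + 1) in each of the 4 libraries for 19 of the 20 named genes with the highest (left) and the 20 with the lowest (right) difference of F1 proximal minus F1 distal, among genes averaging 5 FPKM or more in the F1 pair. Each dot is 1 library, and a grey line joins the F1 pair. On the left the lines are long and F1 distal is the lowest of the 4 libraries for each gene, as for WNT4. On the right the lines are short.

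Genes of DNA replication and cell division formed the broadest group on the proximal side. Of 25 mitotic kinases and cyclins, 16 were at least 2-fold higher in F1 proximal cells and all 25 lay above 0, with a median difference of 1.42 on the log2 scale against 0.20 over all genes. Of 48 spindle and kinetochore genes 25 were higher (median 1.02), of 29 replication licensing genes 13 (median 0.88) and of 29 DNA synthesis genes 8 (median 0.70), and 0 members of these lists were at least 2-fold lower. Every member found by name passed the filter, none of them with both distal libraries below 1 FPKM. Under median-ratio scaling the DNA synthesis count was 4, against 4.19% of all genes. In F5, where 2.18% of all genes were at least 2-fold higher, 1 licensing gene (GMNN, the licensing inhibitor geminin) and 1 mitotic gene (CCNB2) were so, and 0 of the other 2 lists. CDK1, the kinase that drives entry into mitosis, stood at 21.5 FPKM in F1 proximal, 1.42 in F1 distal, 64.5 in F5 proximal and 50.8 FPKM in F5 distal cells. F1 proximal cells lay between the F5 libraries and F1 distal cells, and F1 proximal cells were 15.2-fold (9.83 to 24.9) above F1 distal cells. PLK1, another mitotic kinase, had 21.7, 1.78, 55.3 and 48.5 FPKM in the same order of libraries, and NUF2, a kinetochore protein, 8.1, 0.291, 41.2 and 41.2 FPKM. These followed the order of CDK1. CCNB2, a B-type cyclin, departed from it, because at 97.7 FPKM F1 proximal cells came close to F5 proximal cells at 104, with 5.8 in F1 distal and 35.4 FPKM in F5 distal cells.

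RRM2, the small subunit of ribonucleotide reductase, which makes the DNA precursors, stood at 13.8 FPKM in F1 proximal and 0.218 FPKM in F1 distal cells, 63.2-fold (28.8 to 173) higher, against 45.9 and 40.6 FPKM in the F5 pair. TK1, the S-phase thymidine kinase, was 20.8-fold (9.34 to 57.4) higher at 12.4 against 0.599 FPKM. Among the licensing factors CDT1 stood at 21.7 against 3.86 FPKM, CDC6 at 5.5 against 0.672 FPKM and the helicase subunit MCM3 at 11.9 against 1.97 FPKM. Not all members followed. The replication helicase subunit GINS4 stood at 24.7 against 25 FPKM, the polymerase alpha subunit POLA2 at 24.9 against 30.2 FPKM and the single-strand binding protein RPA1 at 81.1 against 78.2 FPKM. Of 25 DNA repair and checkpoint genes 5 were higher, with a median of 0.57. BRCA1, a protein of homologous recombination, stood at 2.05 against 0.0258 and its partner BARD1 at 4.19 against 0.102 FPKM, FANCL at 2.59 against 0.318 FPKM, and the exonuclease EXO1 at 1.78 FPKM with F1 distal listed at 0. FANCL overlaps VRK2 on the other strand, and the sources used here do not state whether counting used strand. Genes that hold back the cycle did not share the difference in size. Of 17 such genes 0 passed 2-fold in either direction on the log2(FPKM + 1) scale, and the median was 0.19, close to that of all genes. CDKN1B, an inhibitor of cyclin-dependent kinases, stood at 61.1 against 48.2 FPKM. LIN9 stood at 1.51 against 0.59 FPKM, an FPKM ratio of 2.56 (1.64 to 4.14). With a pseudocount of 0.1 FPKM 1 of the 17 genes was at least 2-fold higher, against 9.6% of all genes.

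**Figure D3:**
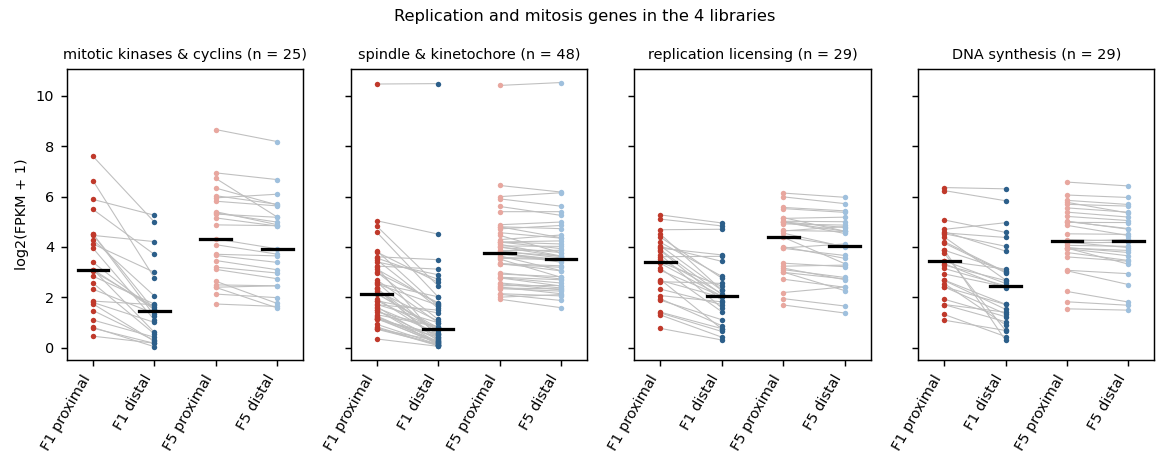
Levels as log2(FPKM + 1) of the members of 4 lists (25 mitotic kinases and cyclins, 48 spindle and kinetochore genes, 29 replication licensing genes and 29 DNA synthesis genes) in the 4 libraries. Each dot is a gene, grey lines join a gene's values within a follicle, and black bars are medians. The bar of F1 distal is the lowest in every panel, and the F5 bars lie close to each other.

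A second set of genes was proximal in both follicles and was close in level between F1 proximal and F5 proximal cells. CCNO, a cyclin known from multiciliated cells and oocytes, stood at 51.8 FPKM in F1 proximal, 1.18 in F1 distal, 55 in F5 proximal and 5.43 FPKM in F5 distal cells. The proximal libraries were close to each other and both distal libraries far lower, and F1 proximal cells were 44-fold (28 to 73.3) above F1 distal cells. Of 12 multiciliation genes found by name, in a list written after values were seen, 4 were below the filter. Of the 8 that passed it, CCNO, MCIDAS and TP73 were at least 2-fold higher in F1 proximal cells, and 2 of these 3 were so in F5 too. TP73 did not share the order of CCNO. It stood at 3.23 against 0.647 FPKM in F1 and, within 2-fold, at 6.59 against 4.86 FPKM in F5. MCIDAS passed the filter only through the proximal libraries. E2F4, at 12.4 against 9.94 FPKM, and RFX2, at 17.7 against 13.6 FPKM, were within 2-fold in F1, and GMNC was listed at 0 in both F1 libraries. MCIDAS, the regulator of that programme, stood at 2.08 FPKM in F1 proximal cells, was listed at 0 in F1 distal cells, and had 3.52 against 0.388 FPKM in F5. MRC2, a collagen receptor, was 84.4-fold (52.6 to 145) higher in F1, at 23.8 against 0.282 FPKM, and stood at 24.2 against 3.01 FPKM in F5. NGFR, a neurotrophin receptor, had 13 against 0.182 FPKM in F1 and 19.4 against 1.66 in F5. NRTN (neurturin), a growth factor outside the neurotrophin family, was at 2.79 against 0.12 FPKM in F1, where the distal value rested on 1 read. BDNF, below the filter, stood at 1.42 FPKM in F1 proximal and 2.43 in F5 proximal cells. It was listed at 0 in both distal libraries. NTRK2, the receptor that BDNF is known to bind, stood at 6.91 against 6.68 FPKM and changed the sign of its small difference under median-ratio scaling.

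Several of these genes belong to epithelia, and a list of 43 epithelial genes was written after their values were seen, so it supports nothing by itself. Of its 33 members found by name 18 were below the filter. Of the 15 that passed it, 2 only through the proximal libraries, 10 were at least 2-fold higher in F1 proximal cells, 0 lower, with a median of 1.58, and 7 of those 10 were also at least 2-fold higher in F5. EPCAM, an epithelial adhesion molecule, stood at 21.7 FPKM in F1 proximal, 0.571 in F1 distal, 29 in F5 proximal and 7.54 FPKM in F5 distal cells, 38.1-fold (21.6 to 74.1) higher in F1. CDH3 (P-cadherin) had 51.4, 3.45, 85.8 and 35.7 FPKM in the same order. In both genes F1 distal was the lowest library. CLDN1, a tight junction protein, was at 18.8 against 0.30 FPKM in F1, CLDN11 at 8.45 against 0.0815 FPKM and KRT19, a keratin, at 4.66 FPKM with F1 distal listed at 0. Other defining epithelial genes were at or near 0. CDH1 (E-cadherin) stood at 0.11 against 0.0202 FPKM, KRT18 was listed at 0 in the 4 libraries, and KRT8 was listed at 0 in both F1 libraries. Of 21 cell junction genes in all, 4 were at least 2-fold higher, and the median of 0.23 was near that of all genes. JUP (plakoglobin), a desmosome and adherens junction protein, was at 19.8 against 28.9 FPKM.

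Transcripts known from the oocyte and the early embryo were present at low levels in both proximal libraries. Of 22 oocyte and germ line genes found by name 9 passed the filter, and 4 passed 2-fold on the F1 proximal side, 3 of which were below 1 FPKM in both distal libraries and reached the filter through the proximal ones. ZP2, an egg coat protein, stood at 8.62 FPKM in F1 proximal, 0.224 in F1 distal, 28.8 in F5 proximal and 2.68 FPKM in F5 distal cells. BMP15, an oocyte growth factor, had 1.93, 0.0778, 6.78 and 0.156 FPKM in the same order. In both genes the proximal library of a follicle was above the distal one. DAZL, a germ cell RNA-binding protein, stood at 2.8 FPKM in F1 proximal cells, was listed at 0 in F1 distal cells, and had 3.81 against 0.0857 FPKM in F5. KPNA7, an importin, was at 3.06 FPKM in F1 proximal cells, listed at 0 in F1 distal cells, and at 3.21 against 0.369 FPKM in F5. The germ cell helicase DDX4 stood at 0.0503 FPKM in F1 proximal cells and was listed at 0 in the other libraries, and KIT at 0.0136 FPKM in F1 distal cells only. ZPD, an egg coat gene of granulosa cells, stood apart from them at 5452 against 6174 FPKM in the F1 pair.

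A list of 32 maternal and early embryo genes, also written after values were seen, had 27 members found by name, of which 10 were below the filter and 17 passed it. Past the filter 13 were at least 2-fold higher in F1 proximal cells, and 9 of those 13 were so in F5 too. The filter itself favours this count, because 7 of the 13, WEE2, NANOG, TRIM71 and FGF16 among them, were below 1 FPKM in both distal libraries and passed only through the proximal ones, so the count supports nothing. WEE2, an oocyte kinase that holds meiotic arrest in mammals, stood at 6.11 FPKM in F1 proximal, 0.124 in F1 distal, 6.09 in F5 proximal and 0.266 FPKM in F5 distal cells. The pluripotency factor NANOG was at 2.1 against 0.0538 FPKM in F1 and 1.85 against 0.0649 in F5, and TRIM71, a regulator of early development, at 2.62 FPKM in F1 proximal cells and listed at 0 in F1 distal cells. FGF16, a fibroblast growth factor, stood at 4.0 FPKM in F1 proximal cells, was listed at 0 in F1 distal cells, and had 4.62 against 0.185 FPKM in F5. DNMT3B, a DNA methyltransferase, did not share this order. It was 3.88-fold (3.51 to 4.29) higher in F1 proximal cells, at 30.9 against 7.97 FPKM, and stood at 144 FPKM in F5 proximal and 144 in F5 distal cells. DNMT3A, TET1, TET3 and ESRRB passed the filter and were within 2-fold in both follicles, with DNMT3A at 22.5 against 18.7 FPKM in F1. The pluripotency factor SOX2 was listed at 0 in every library, and LIN28A and PRDM14 were listed at 0 in both F1 libraries. Of the 11203 genes compared, 22 had at least 30 reads in F1 proximal cells and were listed at 0 in F1 distal cells. With a symbol were 16 of these 22, among them DAZL, KPNA7, TRIM71, FGF16, EXO1, MCIDAS, MSX1 and MNX1. The reverse held for 0 genes. A cut in reads favours the deeper library, which was F1 proximal. The part of oocyte RNA in the proximal libraries was not tested.

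Other signalling genes were also higher in F1 proximal cells. HBEGF, an EGF receptor ligand, stood at 3.54 against 0.0879 FPKM in F1 and 4.05 against 1.13 in F5, the only member past 2-fold of 8 in the EGF family, and its receptor EGFR was at 40.1 against 43.5 FPKM. In the NOTCH pathway 2 of 9 genes were higher, the target HES1 at 3.33 against 0.148 FPKM and the target HEY1 at 21 against 9.78 FPKM. HEY1 lost its call under median-ratio scaling. Of 17 immediate early genes, which respond quickly to stimuli, 3 were at least 2-fold higher and all 17 lay above 0 (13 of 17 under median-ratio scaling). PLK3, a stress-responsive kinase, stood at 19.3 against 1.94 FPKM in F1 and 18.1 against 2.43 in F5, and the phosphatases DUSP1 and DUSP4 at 3.63 against 0.495 and 8.62 against 2.19 FPKM. FOS was at 12.8 against 8.52 FPKM and JUN at 257 against 185 FPKM, both within 2-fold.

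In the gonadotropin and cyclic AMP list, 25 genes passed the filter. In F1 proximal cells 1 was at least 2-fold higher (4.0%, against 5.18% of all genes), and 2 were at least 2-fold lower, against 0.303% of all genes. Both gonadotropin receptors were within 2-fold between the positions. LHCGR, the luteinizing hormone receptor, stood at 494 FPKM in F1 proximal, 600.0 in F1 distal, 32.9 in F5 proximal and 29.3 FPKM in F5 distal cells, high in both F1 libraries and low in both F5 libraries. FSHR, the follicle-stimulating hormone receptor, was at 29 FPKM in F1 proximal, 16 in F1 distal, 47.6 in F5 proximal and 43.3 FPKM in F5 distal cells, lowest in F1 distal cells and 1.8-fold (1.66 to 1.97) higher in F1 proximal cells. PDE3A, a phosphodiesterase that degrades cyclic AMP and is known from oocytes, stood at 2.33 against 0.284 FPKM in F1. This 1 higher gene was at 0.388 FPKM in F5 distal cells, so it reached the filter only through the proximal libraries. The 2 lower genes were PDE1B, a calcium-dependent phosphodiesterase, at 8.3 against 20.1 FPKM, and ADCYAP1R1, the receptor for the peptide PACAP, at 7.45 against 17.4 FPKM. ADCYAP1R1 stood at 0.175 and 0.302 FPKM in F5, so both F1 libraries were above both F5 libraries. ADCY6, an adenylate cyclase, was distal in both follicles, at 2.25 against 4.9 FPKM in F1 and 2.28 against 6.27 FPKM in F5.

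Genes of progesterone synthesis lay lower in F1 proximal cells by less than 2-fold on the log2(FPKM + 1) scale. CYP11A1, which cuts the cholesterol side chain, stood at 322 FPKM in F1 proximal, 633 in F1 distal, 133 in F5 proximal and 202 FPKM in F5 distal cells. It was distal in both follicles, 1.96-fold (1.93 to 2.0) lower in F1 proximal cells, and passed 2-fold under median-ratio scaling. STAR, which moves cholesterol into the mitochondrion, had 464, 717, 83.2 and 96.2 FPKM in the same order of libraries, and HSD3B2 had 1623, 2106, 498 and 682 FPKM. In both, F1 distal was the highest library and the F5 libraries were the lowest. STAR overlaps ASH2L on the other strand, which stood at 121 FPKM in F1 proximal and 139 FPKM in F1 distal cells. The cholesterol synthesis and uptake list lay at a median of -0.34 against 0.20 for all genes, with 18 of 20 members below 0, under median-ratio scaling also 18 of 20, and 0 members past 2-fold. MVD, a mevalonate pathway enzyme, stood at 88.5 against 144 FPKM and LSS, which closes the sterol rings, at 199.5 against 285 FPKM. In F5 the cholesterol list also lay low, at a median of -0.28 against 0.067 for all genes, with 3 of 20 members above 0. NPC2, a cholesterol carrier of the lysosome, had 2.3% of the F1 proximal reads and 3.41% of the F1 distal reads, while its partner NPC1 was above 0 at 198 against 159 FPKM.

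Other members of the steroid list were on the proximal side, and the whole list of 19 genes had 3 higher and 0 lower, with a median of 0.06. AKR1D1, a steroid 5-beta-reductase, stood at 9.41 FPKM in F1 proximal, 0.111 in F1 distal, 7.25 in F5 proximal and 0.892 FPKM in F5 distal cells. HSD17B1, a 17-beta-hydroxysteroid dehydrogenase, had 15.7, 2.58, 29.5 and 14.7 FPKM, and NR0B1 (DAX1), a nuclear receptor that represses steroid genes, had 25.6, 7.81, 50.3 and 18.4 FPKM. All 3 were proximal in both follicles. NR5A1, the main activator of steroid genes, was at 569 against 573 FPKM in F1. Of 16 ovarian and testis identity genes 3 were higher, and besides NR0B1 these were WT1, a gonadal transcription factor, at 4.51 against 0.078 FPKM in F1 and 4.62 against 0.376 in F5, and EMX2 at 30.5 against 10.4 FPKM. GATA4 was at 89.6 against 62 FPKM. The estrogen receptors ESR1 and ESR2 were at 18.5 against 17.9 and 0.996 against 0.878 FPKM, and PGR, the progesterone receptor, at 0.157 FPKM in F1 proximal cells and listed at 0 in F1 distal cells.

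Genes of ovulation and tissue remodelling were mixed. Of 11 ovulation genes 3 were at least 2-fold higher in F1 proximal cells, and the median was 0.61. PLAU, the urokinase plasminogen activator, stood at 25.9 FPKM in F1 proximal, 5.57 in F1 distal, 4.19 in F5 proximal and 1.39 FPKM in F5 distal cells, proximal in both follicles and highest in F1 proximal cells. PTGS1, a prostaglandin synthase, was at 9.43 against 1.75 FPKM and SERPINE2, a protease inhibitor, at 3.24 against 0.668 FPKM. The metalloproteinase inhibitors TIMP2 and TIMP3 were within 2-fold, at 202 against 206 and 183 against 214 FPKM. Of 22 basement membrane and matrix genes, 2 were higher, MRC2 and the heparan sulfate proteoglycan AGRN at 13.9 against 4.73 FPKM. The basement membrane collagen COL4A4 stood at 527 against 382 FPKM and the laminin chain LAMC1 at 243 against 164 FPKM. FMOD (fibromodulin), a collagen-binding proteoglycan, was the reverse, at 47.2 FPKM in F1 proximal, 103 in F1 distal, 36.6 in F5 proximal and 115 FPKM in F5 distal cells, distal in both follicles.

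Oxygen- and glucose-related genes had few large members. Of 32 glycolysis and oxygen sensing genes 3 were higher and 0 lower, with a median of 0.01, below that of all genes. CA9, a carbonic anhydrase, stood at 21.4 against 0.895 FPKM in F1 and 47.5 against 17.8 in F5. EGLN3, an oxygen-sensing hydroxylase, was at 3.15 against 0.037 FPKM and ADM (adrenomedullin) at 3.1 against 0.48 FPKM. HK2, a hexokinase, was on the distal side at 12.5 against 23.1 FPKM, and the angiogenic factor VEGFA was at 246 against 216 FPKM. GPX3, a secreted glutathione peroxidase, was singled out after its values were seen, as the gene with the highest mean level over the F1 pair among those with a symbol past 2-fold. It stood at 972 FPKM in F1 proximal, 476 in F1 distal, 393 in F5 proximal and 236 FPKM in F5 distal cells, proximal in both follicles and highest in F1 proximal cells. GPX3 was close to the 2-fold rule and lost its call under median-ratio scaling.

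On the distal side, where 0.303% of all genes were at least 2-fold lower, no list had more than 2 such members. STC2, a stanniocalcin and the gene with a symbol that had the lowest difference, stood at 2.65 FPKM in F1 proximal, 8.94 in F1 distal, 5.07 in F5 proximal and 6.51 FPKM in F5 distal cells, 3.38-fold (2.47 to 4.67) lower in F1 proximal cells. STC1 had 672, 1222, 51 and 103 FPKM in the same order, far higher in F1 than in F5 and distal in both follicles. STRA6, a retinol transporter, was at 187 against 363 FPKM in F1 and 116 against 154 FPKM in F5. Of the 34 genes at least 2-fold lower, 10 had a symbol. These were STC2, PDE1B, ADCYAP1R1, FMOD, the extracellular matrix protein TNR, the synaptic vesicle protein SYNPR, SLC45A3, the leucine-rich repeat protein ISLR2, the sodium channel subunit SCNN1B and the calcitonin gene CALCA. TNR stood at 2.92 against 7.4 FPKM in F1 and 0.353 and 0.408 in F5, SYNPR at 4.03 against 9.2 and 0.554 and 0.31 FPKM, and ISLR2 at 2.62 against 7.07 and 0.229 and 0.412 FPKM. In these 3 genes both F1 libraries were above both F5 libraries. The unnamed gene with the highest level among the 34, ENSGALG00000028371, has a model of 70 bases, at 1020.3 FPKM in F1 proximal and 3845 FPKM in F1 distal cells.

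Housekeeping groups lay close together. Of 64 cytosolic ribosomal protein genes 0 passed 2-fold, the median was -0.12, and 63 lay below the median of all genes. RPLP0 was at 2159 against 2754 FPKM and RPS13 at 485 against 622 FPKM. Nuclear genes of oxidative phosphorylation had a median of -0.03 over 52 genes and endoplasmic reticulum folding and secretion genes of -0.01 over 26, both with 0 members past 2-fold. Ribosomal RNA processing genes had a median of 0.16 over 43 genes, with 0 members past 2-fold, and apoptosis and survival genes of 0.12 over 16, with 0. Of 158 solute carriers 3 were higher and 1 lower, under median-ratio scaling 1 and 1, and with a pseudocount of 0.1 FPKM 10 and 1. Over all genes 4.19% were higher under that scaling and 9.6% with that pseudocount. SLC30A2, a zinc transporter, stood at 2.89 FPKM in F1 proximal cells, was listed at 0 in F1 distal cells, and had 7.8 and 5.66 FPKM in F5.

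**Figure D4:**
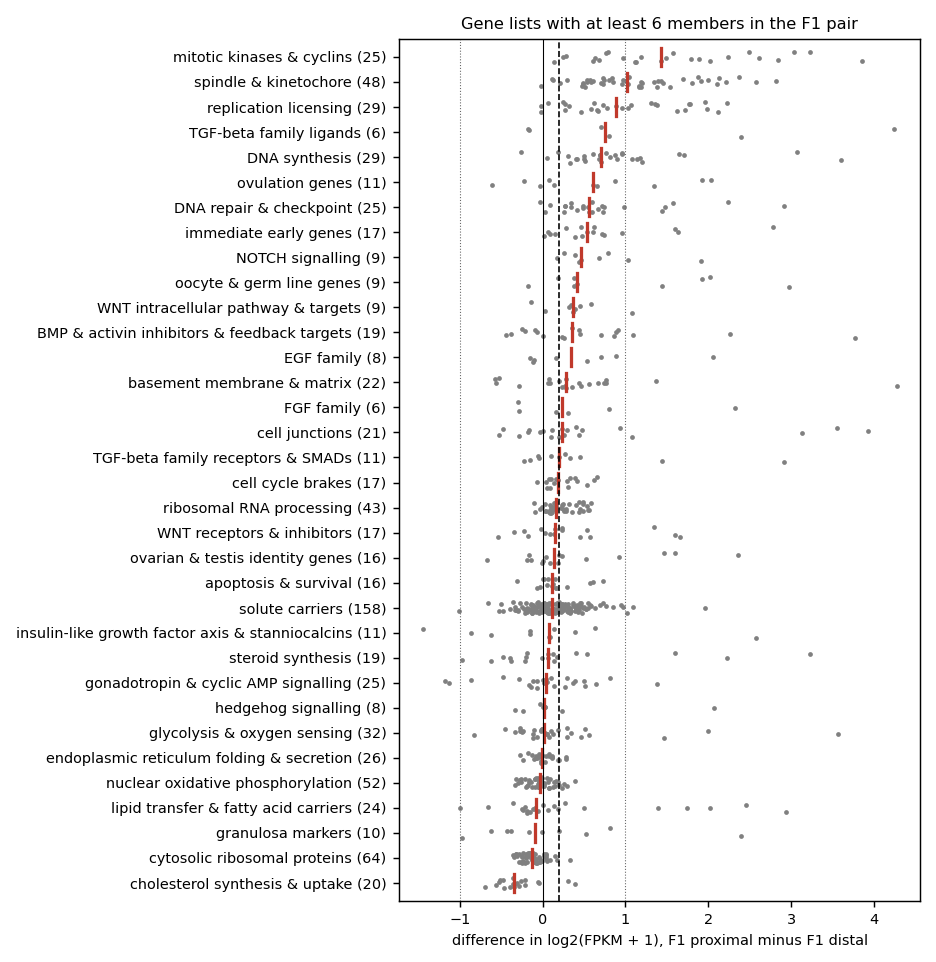
Difference in log2(FPKM + 1) of F1 proximal minus F1 distal (horizontal axis) for the members of each gene list with at least 6 genes past the filter, whose number stands in parentheses. Each dot is a gene, the red bar is the list's median, the dashed line is the median of all genes at 0.20 and the dotted lines mark 2-fold. Mitosis lists stand highest, with a median of 1.42 for the mitotic kinases and cyclins, and cholesterol synthesis lowest at -0.34.

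The F5 pair shares no library with the F1 pair, but the filter averaged all 4 libraries. Genes near 0 in both distal libraries were thus kept only where proximal values were high. This favours calls in both follicles, among the 580 genes and the 125 below, by an amount not measured here. Beyond the lists where this is stated above, ENG, EMCN, AKR1D1, WT1, CLDN11, ADM, FABP3 and HES1 were below 1 FPKM in both distal libraries. The counts of higher members in their lists share this limit. In F5 153 of the 580 genes (26.4%) were also at least 2-fold higher in proximal cells, against 2.18% of all genes. A further 423 (72.9%) were within 2-fold and 4 were lower. The median level of the 580 genes was 10.6 FPKM in F5 proximal and 6.75 FPKM in F5 distal cells, against 5.33 and 0.833 FPKM in F1 proximal and F1 distal cells, whose order the choice of the genes fixed. For 319 of the 580 (55.0%) both F5 libraries were above F1 proximal cells, a share near the 59.3% of all genes. Of the 125 genes at least 4-fold higher, 62 (49.6%) were also at least 2-fold higher in F5, against the same 2.18% of all genes at that fold. At 4-fold the F5 pair had 47 higher genes, 0.42% of all genes. Of the 34 lower genes 3 were also at least 2-fold lower in F5, against 0.321% of all genes, and 2 were at least 2-fold higher. The difference between the follicles has no residual spread with 1 library per group and was not tested.

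**Figure D5:**
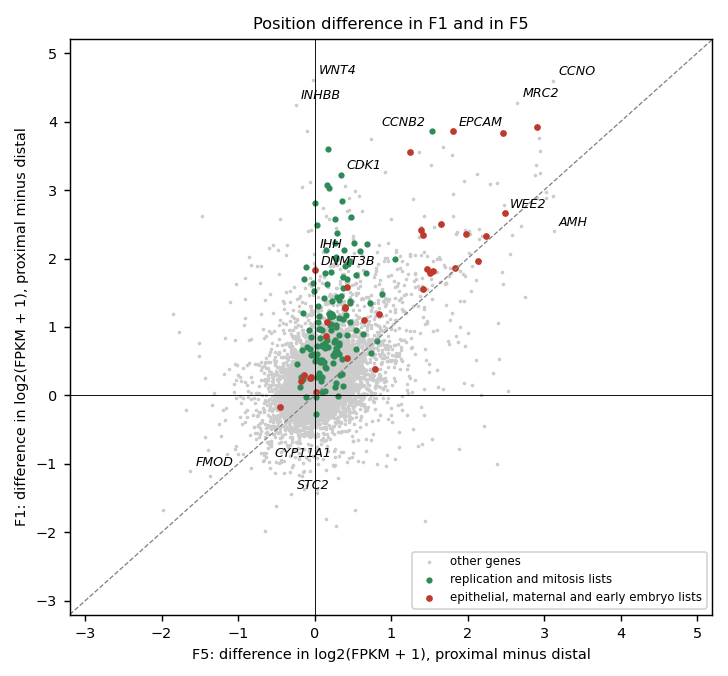
Difference in log2(FPKM + 1) of proximal minus distal cells in F1 (vertical axis) against F5 (horizontal axis), 1 point per gene. Green points are the replication and mitosis lists, red points the epithelial and the maternal and early embryo lists, grey points all other genes, and the dashed line marks equal differences. Green points extend upward near 0 on the F5 axis, as CDK1 does, and most red points lie toward the upper right, as EPCAM does. Both red lists were written after values were seen. In them 2 epithelial and 7 maternal and early embryo genes passed the filter only through the proximal libraries, which favours that place.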

How the data were processed

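RNA of 4 granulosa cell libraries was analysed, 1 per group. FPKM values were computed by the authors before deposit, and TopHat2 2.0.12 and HTSeq 0.6.1 were used, per the submitters' processing notes. The genome build and the use of strand are not given in the sources used here, and the deposited fold changes were not used. The deposited length column, a number of another kind, served only to recover reads. The sample named F1d was matched to a column headed G1d, the column in its own file.

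Genes were joined by identifier with pandas 2.3.3, numpy 2.4.6 and scipy 1.17.1 in Python 3.11.15. A name was used for 11762 genes, where it was unique and stood in the RefSeq table of assembly GRCg7b. The 11203 genes averaging 1 FPKM or more across the libraries were compared as log2(FPKM + 1) differences, which understate the change of low genes. FPKM were turned into whole reads, at a tolerance of 0.0001 reads, for 16894 of 16894 genes above 0, and these made up 99.77% to 99.93% of the library totals. Folds are FPKM ratios with 95% exact (Clopper-Pearson) intervals, which cover counting error only. A count model was not fitted, and no p-value is given, because each group had 1 library. The read recovery and the size rule were run on simulated data. There the length behind the FPKM values was the deposited length, where the search for it starts, so recovery at other lengths was not tested.

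The comparison and its 42 gene lists were chosen with earlier results of these data known. Named genes were the 20 highest and 20 lowest among genes averaging 5 FPKM or more in the F1 pair, the 8 genes with most reads in each F1 library, up to 4 genes per list and a set of ovarian genes. Further list members were picked after their values were seen, as were the epithelial, multiciliation and early embryo lists. Values of some of these genes are not reported here. Of 194 named genes 26 overlap another gene. Left out were 2 rows that name no gene, and promoter motifs were not searched because no promoter sequence was used here. Alternatives were the pseudocount, the filter, median-ratio scaling, a library total without ZP3 and Ensembl genes alone.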

Additional observations from a re-analysis of the deposited data

Results flagged for a closer look

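Past 2-fold in F1 proximal cells, 4 genes with a symbol were lower in F5 proximal than in F5 distal cells by at least 0.5 on the log2(FPKM + 1) scale. FABP4, a fatty acid binding protein, differed by 2.02 in F1 and by -0.86 in F5, and FABP5 by 1.40 and -0.65. EMP1, an epithelial membrane protein, differed by 1.65 in F1 and by -0.71 in F5, with 2.88 FPKM in F1 proximal, 0.24 in F1 distal, 35.1 in F5 proximal and 58.2 FPKM in F5 distal cells. CTHRC1, a secreted collagen triple helix protein, differed by 1.19 in F1 and by -0.70 in F5, with 15.8 and 6.39 FPKM in F1 and 325 and 527 FPKM in F5. All 4 were highest in F5 distal and lowest in F1 distal cells. A further 6 genes passed 2-fold in opposite directions in the 2 follicles. None has a symbol, their models are 65 to 127 bases long, and no library held more than 17 reads of any of them. With 1 library per group, the difference between the follicles was not tested for these genes.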

How the results depend on the processing

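Counts of genes moved most with the pseudocount. With a pseudocount of 0.1 FPKM the 580 genes at least 2-fold higher became 1076 and the 34 lower became 77. With 5 FPKM they became 148 and 4. Among the 8026 genes averaging 5 FPKM or more, 331 were higher (4.12%, against 5.18% in the main setting) and 13 lower. Median-ratio scaling gave 88 lower genes and a median of all genes of -0.023. Without a filter, with a filter on the F1 pair, with Ensembl genes alone and without ZP3 in the total, both counts stayed within 1.5 times. Higher members of the DNA synthesis list, of 29, came to 14 with a pseudocount of 0.1, against 9.6% of all genes. With a pseudocount of 5 they came to 3, against 1.32%, and under median-ratio scaling to 4, against 4.19%. A pseudocount of 5 left 6 licensing, 9 mitotic, 5 spindle and 1 oocyte gene, against the same 1.32% of all genes. The filter at 5 FPKM also left 1 oocyte gene, of 3 that passed it. Of the named genes under median-ratio scaling, 159 kept their side of the 2-fold rule, 14 newly passed it, 6 no longer did and 10 small differences changed sign: COX1 -0.082, CTSA -0.17, COX3 -0.11, RSPO3 -0.023, NTRK2 -0.19, MYH11 -0.051, PECAM1 -0.046, FOXL2 -0.062, ESR1 -0.20 and ESR2 -0.0397. A higher pseudocount lowers differences of low genes by construction, and the cause of the other changes was not tested. No paired analysis was possible because each group had 1 library, and no library could be left out for the same reason. The depth of the F1 distal library limits genes near 0, where a floor of 3 reads equals 0.215 FPKM for a gene of 1 kb.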
